A study of Mus musculus with 8 samples.

Results

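Among the miRNAs sequenced from murine articular chondrocytes, 80 names belonged to the rodent miR-297, miR-466, miR-467 and miR-669 groups, out of 1966 names of mature miRNAs in the deposited table. They were chosen by name alone, as every name in which one of these 4 numbers is followed by a letter or a hyphen. The cells were primary chondrocytes of the femoral head, taken from wild-type mice at 3 weeks of age, and were cultured for 24 h with vehicle (n = 4 libraries) or with 1 ng/ml IL-1β, a cytokine that drives cartilage inflammation (n = 4 libraries). No strain, sex or genetic change was named for these mice. Nothing in the labels said whether the 4 libraries of a group came from separate animals or cultures, so that p-values measure only the spread between these libraries, which may be technical.

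Mature miRNAs are cut from the 5′ or the 3′ side of a hairpin (the 5p or 3p arm), and they guide silencing proteins to mRNAs that pair with the seed, the bases near the 5′ end. The miR-297, miR-466, miR-467 and miR-669 hairpins are the best known example of a large miRNA cluster that expanded in rodents, by repeated duplication inside an intron of Sfmbt2. Sfmbt2 encodes a Polycomb group protein, is expressed from the paternal allele in extraembryonic tissue, and is known, with its miRNAs, for its part in the growth of the placenta. The cluster has also been studied in embryonic stem cells.

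The place of these hairpins was examined first. With the GENCODE M21 annotation (GRCm38), every one of the 80 names was matched to at least 1 hairpin, and 82 hairpins were found in all. Of these, 72 lay within Sfmbt2 (chromosome 2, 10370510 to 10595253, plus strand), all 72 on the plus strand and all in intron. They filled 51.6 kb, from 10466663 to 10518279, inside intron 10 of the transcript Sfmbt2-201 (10461473 to 10523944, intron 11 of Sfmbt2-205). The other 10 hairpins were on chromosomes 3, 5, 7, 9, 10, 11 and 13. As a result, 71 names had a hairpin in Sfmbt2 and 9 had none there, so that the name of the cluster did not cover every member. A further 47 miRNA genes were annotated in Sfmbt2 under gene model names only, and none of the 47 could be matched to a name in the table.

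Mature sequences were found in the RefSeq table (GRCm38.p6) for 8 of the 80 names, all of them among the 9 with no hairpin in Sfmbt2. Those shown here are the 3 with counts and miR-466i-3p, the partner arm of miR-466i-5p. They show how repetitive these names from outside the cluster are, and the capitals mark the seed, bases 2 to 8.
miR-467f: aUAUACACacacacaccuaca
miR-467h: aUAAGUGUgugcauguauaugu
miR-669n: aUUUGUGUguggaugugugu
miR-466i-3p: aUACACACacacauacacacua

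These sequences were rich in alternating U and G, or in alternating A and C. In miR-669n (chromosome 3, 115979905 to 115979924, plus strand, opposite an intron of Slc30a7) 68.4% of the steps from one base to the next were UG or GU. In miR-467h (chromosome 9, 115381898 to 115381919, plus strand, outside annotated genes) this share was 47.6%. miR-467f (chromosome 11, 69635419 to 69635439, minus strand, opposite an intron of Fxr2) had 65.0% of AC or CA steps, with an unbroken alternating run of 12 bases. miR-466i-3p (chromosome 13, 17747552 to 17747573, plus strand, opposite an intron of Cdk13) had 71.4% of AC or CA steps. Taking for each sequence the larger of its UG and AC shares, the median of the 1671 other mature mouse miRNAs was 19.0%, and 9 of the 1671 reached the lowest value of the 8 members. These values describe the sequences only, and where reads with such repeats were placed in the genome cannot be read from the table.

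Members of the cluster were scarce in chondrocytes. Counts were present for 24 of the 80 names (30%), against 51.9% of all other names in the table. The 24 names held 454 of 7959576 counts over the 8 libraries, or 0.00570% of all counts. For each of the 56 names with 0 counts in every library, the 3 counts that an observed 0 allows correspond to 0.377 CPM (counts per 1000000) over all libraries. This limit covers counting error only. For names with several hairpins it is no upper limit, as reads with several positions may not have been kept. Only 7 names had 10 or more counts in all, 17 had 1 to 9, and of the latter 8 had a single count. The depth of the libraries was 616475 to 1568367 counts, so that 1 count was worth 0.638 to 1.62 CPM.

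The counts were concentrated in few names. miR-467d-5p gave 167 counts and miR-669c-5p gave 104, together 59.7% of the counts of the cluster. With miR-466g (49 counts), miR-467c-5p (29), miR-466h-3p (25) and miR-466i-5p (25), the 6 most abundant names held 87.9%. The most abundant, miR-467d-5p, ranked 259 among all miRNAs of the table by total counts. Library preparation favors some sequences over others, so that these orders are those of counts and not of molar amounts.

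By number, the 13 miR-467 names held 45.4% of the counts of the cluster, with 6 of 13 detected. The 30 miR-669 names held 140 counts (30.8%), with 11 detected. The 31 miR-466 names held 103 counts (22.7%), with 5 detected. The 6 miR-297 names were nearly absent, with 5 counts in all, of which 4 were of miR-297a-5p. Members with a hairpin in Sfmbt2 held 426 of the 454 counts (93.8%), and of the remaining 28 counts 25 were of miR-466i-5p, whose hairpin is on chromosome 13 (17747473 to 17747593, plus strand, opposite an intron of Cdk13).

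The number of hairpins behind a name was then compared with its counts, since reads from identical copies map to several places. The 61 names with 1 hairpin held 439 counts (96.7%), whereas the 19 names with 2 or more hairpins held 15 counts (3.30%). This was not so for the other names of the table. Of these, 1714 with 1 hairpin held 5672967 counts and 49 with 2 or more held 1360836. A further 123 other names, with 925319 counts, were not matched to a hairpin. No counts were listed for miR-669a, with 12 hairpins, or for miR-466b, with 8, on any arm, and miR-467a, with 10, had 5. Of the 19 names, 18 were listed in the table with a length of at most 30 nt, that of a single mature miRNA, and miR-297a-5p alone was listed as longer, at 44 nt. Counted by names, 20 of the 61 with 1 hairpin (32.8%) and 4 of the 19 with 2 or more (21.1%) had counts, against 902 of 1714 (52.6%) and 27 of 49 (55.1%) of the other names of the table. The sources used here did not state how many loci were counted for such a name, or whether featureCounts kept reads with several positions. The part of these steps in the low counts of multicopy members was not tested. The values of each member are therefore those of reads that could be assigned to that name, and relatives that differ by few bases may share reads.

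**Figure D1:**
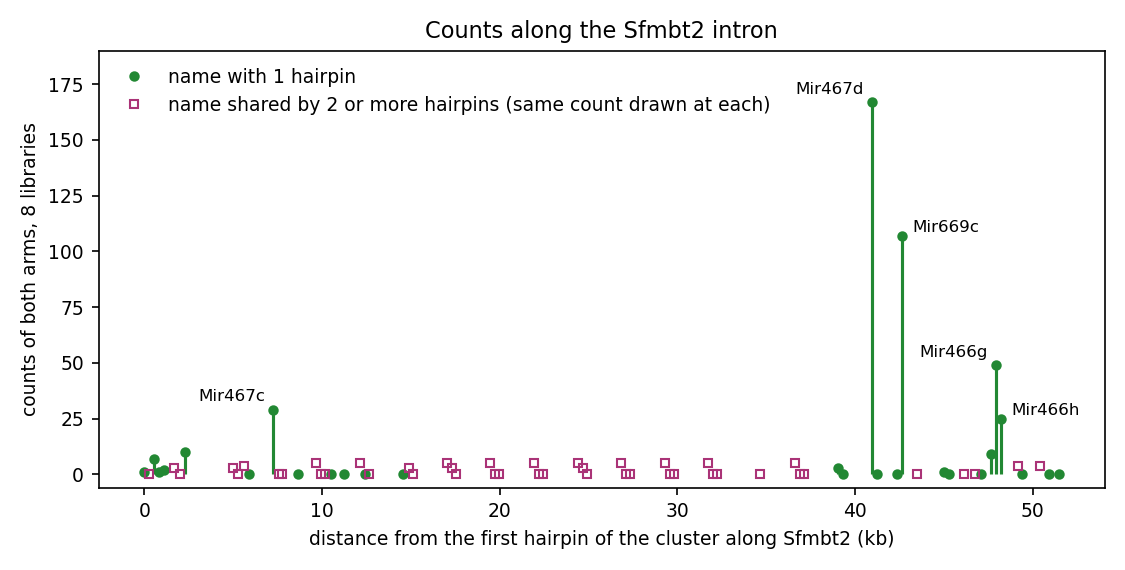
Counts along the Sfmbt2 intron, with the distance from the first hairpin (kb) on the horizontal axis and the counts of both arms summed over the 8 libraries on the vertical axis. Green points are names with 1 hairpin, which reach 167 counts at Mir467d and 107 at Mir669c. Open squares are names shared by several hairpins, none of which exceeds 5 counts, and the count of the name is drawn again at each hairpin.

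The hairpins with most counts lay near the 3′ end of the cluster. Mir467d (chromosome 2, 10507630 to 10507714) and Mir669c (10509296 to 10509404) stood 41.0 and 42.6 kb after the first hairpin. Mir669o (10514300 to 10514395), Mir466g (10514595 to 10514674) and Mir466h (10514891 to 10514971) followed each other within 1 kb, with 9, 49 and 25 counts. Mir467c (10473931 to 10474027), at 7.27 kb, and Mir669l (10468971 to 10469068), at 2.31 kb, were the members of the 5′ part with 10 or more counts. The same intron thus held neighbors with very different counts, all in intron on the strand of Sfmbt2.

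Counts came mostly from the 5p arm. Names ending in 5p held 368 counts, names ending in 3p held 34, and names without an arm held 52, of which 49 were of miR-466g. Both arms were named for 33 hairpins or groups of hairpins, of which 17 had counts. The 5p arm had more counts in 13 of the 17, the 3p arm in 3, and the arms were equal in 1. miR-467d, miR-467c and miR-466i had 167, 29 and 25 counts of the 5p arm and 0 of the 3p arm, and miR-669c had 104 and 3. miR-466h was the opposite, with 25 counts of the 3p arm and 0 of the 5p arm. The 5p share of counts with a named arm was 92.5% ± 1.53 in vehicle libraries and 90.4% ± 2.32 in IL-1β libraries (SD, n = 4), and the groups overlapped. The difference, -2.05 percentage points, was -3.02 without IL-1β replicate 2 and -1.32 without IL-1β replicate 3, the ends of its range as each library was left out.

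To ask whether the cluster as a whole changed with IL-1β, its summed share of each library was compared. It was 0.00430%, 0.00674%, 0.00650% and 0.00473% in vehicle replicates 1 to 4, from 40, 102, 102 and 30 counts. The IL-1β libraries, in the same order, had 0.00487%, 0.00602%, 0.00561% and 0.00491%, from 30, 69, 39 and 42 counts. All 4 IL-1β libraries lay within the range of the vehicle libraries. The lowest vehicle share had an exact (Clopper-Pearson) 95% binomial interval of 0.00307% to 0.00586%, and the highest of 0.00549% to 0.00818%, which cover counting error only. The means were 0.00557% ± 0.00123 and 0.00535% ± 0.000564 (SD, n = 4), a difference (IL-1β minus vehicle) of -0.000217 percentage points, smaller than the pooled SD of 0.000957. This difference was -0.000640 without vehicle replicate 1 and 0.000172 without vehicle replicate 2, so that its sign rested on single libraries. The SD over the 8 libraries was 0.000893 percentage points, where counting error alone would give 0.000803. No test was made on this sum, because the members were proposed with results of these data known. In bulk RNA, fewer cells that express a miRNA and less of it in each cell cannot be told apart.

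**Figure D2:**
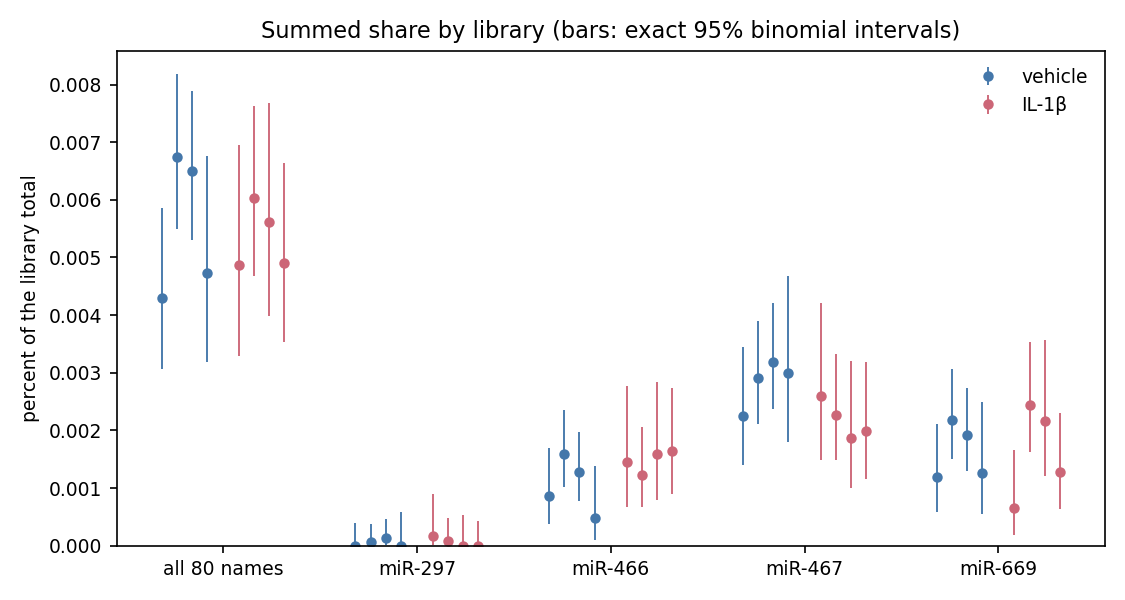
Share of each library's total counts (percent, vertical axis) taken by all 80 names and by each of the 4 numbers, with 1 point per library and exact 95% binomial intervals as bars. For all 80 names the IL-1β points, from 0.00487% to 0.00602%, sit within the vehicle points, from 0.00430% to 0.00674%.

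The 4 numbers were also summed separately. For miR-467 names the share was 0.00284% ± 0.000404 in vehicle libraries and 0.00218% ± 0.000324 in IL-1β libraries (SD, n = 4), a ratio of 0.768. The groups overlapped, with 0.00226% as the lowest vehicle value and 0.00260% as the highest IL-1β value. The difference, -0.000657 percentage points, exceeded the pooled SD of 0.000366, and it stayed below 0 as each library was left out (-0.000851 to -0.000540). The SD over the 8 libraries was 0.000488 percentage points, where counting error alone would give 0.000541. miR-466 names took 0.00105% ± 0.000485 and 0.00147% ± 0.000184 (SD, n = 4), a ratio of 1.41 in the other direction, again with overlap. This difference, 0.000427 percentage points, fell to 0.000235 without vehicle replicate 4, which held 3 counts of these names, and was 0.000605 without vehicle replicate 2. For miR-669 names the means were nearly equal, at 0.00163% ± 0.000489 and 0.00163% ± 0.000821 (SD, n = 4), but this rested on single libraries. The SD over the 8 libraries was 0.000626 percentage points, where counting error alone would give 0.000446, and the difference was 0.000328 without IL-1β replicate 1 and -0.000270 without IL-1β replicate 2. miR-297 names had 0 to 2 counts in a library, too few for a comparison. Members with a hairpin in Sfmbt2 took 0.00534% ± 0.00110 and 0.00486% ± 0.000619, and those with none took 0.000233% ± 0.000172 and 0.000491% ± 0.000265 (SD, n = 4), with overlap in both. As each library was left out, the former difference was -0.000892 to -0.000140 percentage points, and the latter, 0.000258 with all libraries, was 0.000134 (without IL-1β replicate 3) to 0.000334.

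The number of members detected depends on depth and was compared at equal depth. At the total of the shallowest library, 616475 counts, an expected 9.30 ± 0.496 members had at least 1 count in vehicle libraries and 8.71 ± 0.619 in IL-1β libraries (SD, n = 4). The libraries of both groups overlapped, with 8.86 to 9.95 members with vehicle and 8.05 to 9.42 with IL-1β. The difference, -0.59, ranged from -0.83 (without IL-1β replicate 3) to -0.37 (without IL-1β replicate 4) as each library was left out. Without this adjustment the numbers were 11.5 ± 2.08 and 9.50 ± 0.577, the vehicle group holding the 2 deepest libraries.

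Members were next tested singly, in a fit over all miRNAs above 1 CPM in 4 or more of the 8 libraries. Of the 80 members, 8 passed this filter among 564 miRNAs. Of the 72 that did not pass, 56 had no counts and 16 had too few. None of the 8 was called by the quasi-likelihood test of edgeR (Benjamini-Hochberg adjusted p under 0.05 and absolute log2 fold change over 0.3), against 1.95% of all tested miRNAs (1.42% higher and 0.532% lower with IL-1β). None had an unadjusted p under 0.05, against 11.2% of all tested miRNAs, by edgeR. By DESeq2 also 0 of the 8 had an unadjusted p under 0.05, and an adjusted p was given for miR-467d-5p alone, as the other 7 fell under its own filter. DESeq2 called 12 of the 564 miRNAs. Its share of all miRNAs with an unadjusted p under 0.05 is not given here. The groups did not overlap for 0 of the 8, against 7.62% of all tested miRNAs. The 8 members were scarcer than most tested miRNAs and had larger SEs. The median of the mean counts per library was 3.38 for members and 14.1 for all tested, and the median SE was 0.644 and 0.309. The log2 fold change (IL-1β against vehicle) was above 0 for 4 and below 0 for 4, with a median of -0.10 against 0.01 for all tested miRNAs. Of the 306 tested miRNAs with a mean of at most 20.9 counts per library, the level of the most abundant member, 0 were called, so that all 11 calls of the comparison came from the 258 miRNAs above it. Since 1 count exceeded 1 CPM in the 5 shallowest libraries, the filter let through members with about 1 count per library. IL-1β replicate 4 stood apart in the series, in that 19 miRNAs in place of 11 were called without it, whereas 6 were called without vehicle replicate 4 and 7 without vehicle replicate 2 or IL-1β replicate 3. Without IL-1β replicate 4, 0 members were called, with a smallest edgeR adjusted p of 0.531.

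**Figure D3:**
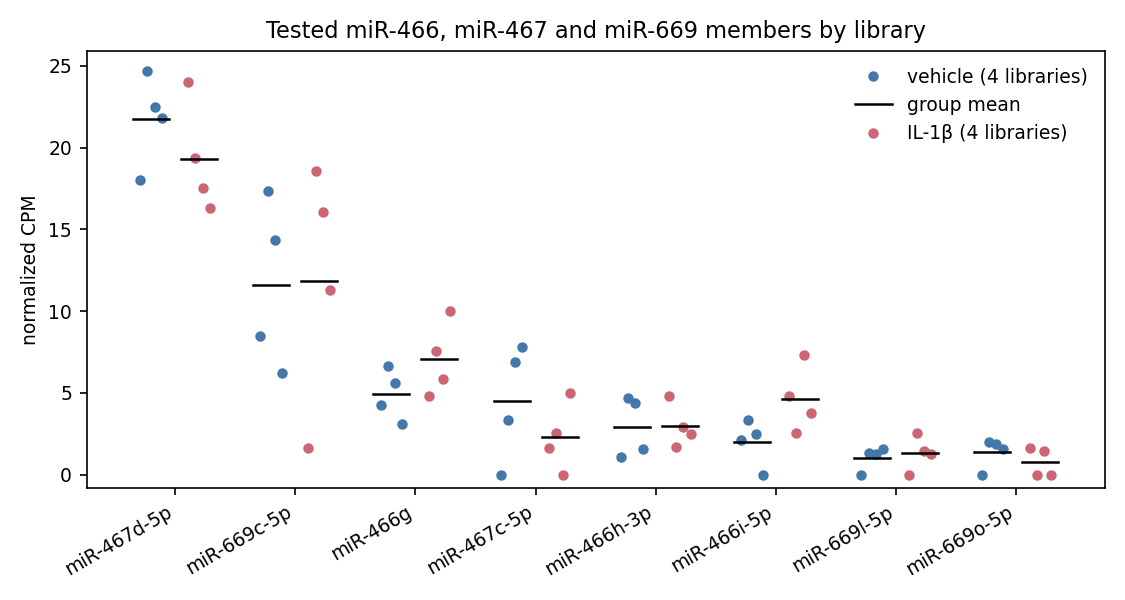
Abundance of the 8 tested members in normalized CPM (vertical axis), with 1 point per library, vehicle in blue and IL-1β in red, and the group mean as a black line. The points of both groups overlap for every one of the 8, from miR-467d-5p at 16.3 to 24.7 down to miR-669o-5p at 0 to 2.00.

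miR-467d-5p, the most abundant member, was at 18.0, 24.7, 22.5 and 21.8 normalized CPM (CPM on the library total scaled by TMM) in vehicle replicates 1 to 4. With IL-1β, in the same order, it was at 24.0, 19.4, 17.5 and 16.3. The IL-1β libraries spread around the lower vehicle values, and IL-1β replicate 1 was among the highest of all. The means were 21.8 ± 2.77 and 19.3 ± 3.38 (SD, n = 4), and the log2 fold change was -0.20 (SE 0.239, 95% interval -0.70 to 0.29, edgeR adjusted p = 0.794). It was -0.13 without vehicle replicate 2 and -0.30 without IL-1β replicate 1, the ends of its range as each library was left out. 

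miR-669c-5p varied widely between libraries of the same treatment. It was at 8.48, 17.4, 14.4 and 6.23 normalized CPM in vehicle replicates 1 to 4 and at 1.6, 18.5, 16.1 and 11.3 in IL-1β replicates 1 to 4. IL-1β replicate 1, the shallowest library, held 1 count of it beside 15 of miR-467d-5p, a ratio of 15, whereas the ratio of these miRNAs was 1.05 to 3.50 in the other 7 libraries. The means were 11.6 ± 5.14 and 11.9 ± 7.48 (SD, n = 4), and the log2 fold change was 0.01 (SE 0.389, 95% interval -0.79 to 0.81, edgeR adjusted p = 0.992). The value rested on single libraries, at 0.29 when IL-1β replicate 1 was left out and -0.39 when IL-1β replicate 2 was, with edgeR adjusted p of 0.785 to 0.998 over all alternatives.

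miR-466g was at 4.24, 6.67, 5.62 and 3.12 normalized CPM in vehicle replicates 1 to 4 and at 4.80, 7.59, 5.85 and 10.0 in IL-1β replicates 1 to 4. IL-1β replicate 4 was the highest and vehicle replicate 4 the lowest, and the other 6 libraries interleaved. The log2 fold change was 0.45 (SE 0.420, 95% interval -0.42 to 1.32, edgeR adjusted p = 0.757). As each library was left out it ranged from 0.26 (without IL-1β replicate 4) to 0.62.

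miR-467c-5p, a close relative of miR-467d-5p by name, was at 0, 3.34, 6.87 and 7.79 normalized CPM in vehicle replicates 1 to 4 and at 1.6, 2.53, 0 and 5.01 in IL-1β replicates 1 to 4. It was absent from a library of each group, and its counts per library were 0 to 11. The log2 fold change was -0.85 (SE 0.741, 95% interval -2.38 to 0.68, edgeR adjusted p = 0.753). It was -0.42 without vehicle replicate 3, -0.53 without IL-1β replicate 3 and -1.42 without IL-1β replicate 4.

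miR-466i-5p, from chromosome 13, had the smallest unadjusted p of the members, at 0.187. It was at 2.12, 3.34, 2.5 and 0 normalized CPM in vehicle replicates 1 to 4 and at 4.80, 2.53, 7.31 and 3.76 in IL-1β replicates 1 to 4. In this case 3 of the 4 IL-1β libraries were above all vehicle libraries, on 3 to 5 counts each. The log2 fold change was 0.87 (SE 0.644, 95% interval -0.45 to 2.20, edgeR adjusted p = 0.735), and it stayed above 0 in the 13 alternatives that tested it, from 0.56 to 1.16.

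miR-466h-3p was at 1.06, 4.67, 4.37 and 1.56 normalized CPM in vehicle replicates 1 to 4 and at 4.80, 1.69, 2.92 and 2.51 in IL-1β replicates 1 to 4. The group means were 2.92 ± 1.87 and 2.98 ± 1.32 (SD, n = 4), so that the plain means were nearly equal while the fitted log2 fold change, which weights libraries by depth, was -0.25 (SE 0.645, 95% interval -1.58 to 1.08, edgeR adjusted p = 0.935). It ranged from -0.53 (without IL-1β replicate 1) to 0.0057 (without vehicle replicate 2) as each library was left out. The last pair tested, miR-669l-5p and miR-669o-5p, had 10 and 9 counts in all, with 0 to 3 in a library. Their log2 fold changes were 0.45 and -1.11, with SEs of 0.925 and 1.08 and edgeR adjusted p of 0.904 and 0.757. As each library was left out, the log2 fold change of miR-669o-5p ranged from -1.68 (without IL-1β replicate 1) to -0.60 (without IL-1β replicate 2). That of miR-669l-5p ranged from -0.18 (without IL-1β replicate 2) to 0.74 (without IL-1β replicate 1).

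**Figure D4:**
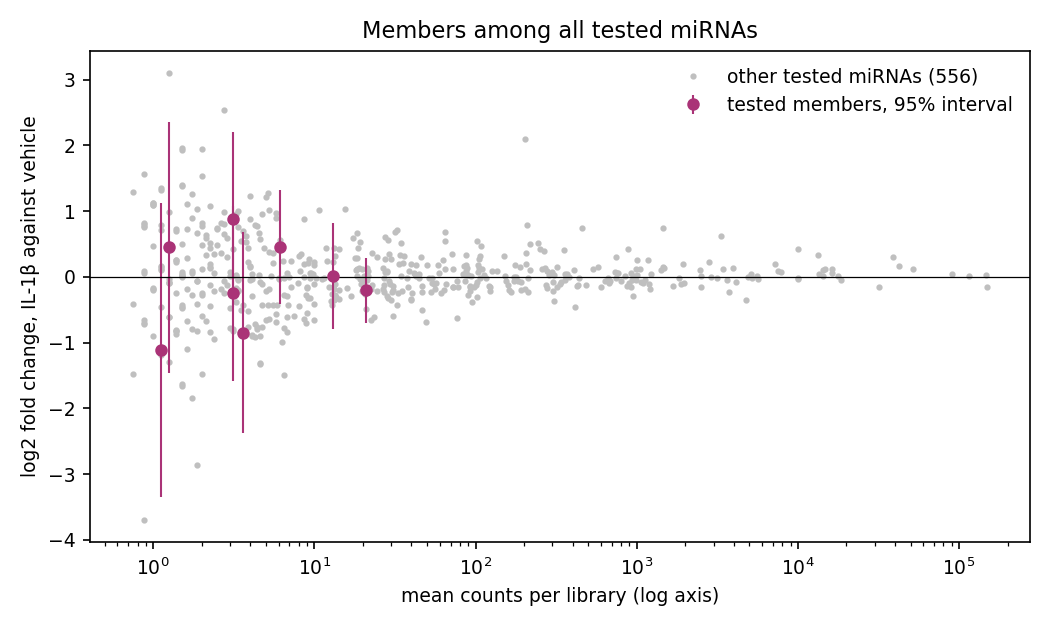
Log2 fold change of IL-1β against vehicle (vertical axis) by mean counts per library (horizontal log axis) for the 564 tested miRNAs. The 8 members, in purple with 95% intervals, all have intervals that include 0 and lie at mean counts of 1.13 to 20.9, where the gray points of other miRNAs are widely scattered.

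Members too scarce for the filter are given as counts. miR-467a-5p had 2 and 3 counts in vehicle replicates 1 and 3 and 0 in the other 6 libraries, where the limits that a count of 0 allows were 1.98 to 4.87 CPM. As this name has 10 hairpins, these limits hold only for reads that could be assigned to it. miR-297a-5p had 1 and 2 counts in vehicle replicates 2 and 3 and 1 in IL-1β replicate 2. miR-669f had counts of both arms, with 4 of 3p and 3 of 5p, spread over vehicle replicate 1 and IL-1β replicates 2 to 4. miR-669d-5p had 1 count in vehicle replicate 1 and 2 in IL-1β replicate 1.

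The identity of the cells was checked with marker miRNAs. The arms of miR-140 and miR-455, known from cartilage, took 15.6% to 16.8% of vehicle counts and 12.4% to 15.3% of IL-1β counts, and all 4 had counts. Of 5 haematopoietic miRNAs, 2 had counts (miR-142a-3p, miR-223-3p and miR-451a were at 0), at 0.00441% to 0.00638% with vehicle and 0.00260% to 0.00471% with IL-1β. Nearly all of these 374 counts were of miR-150-5p, at a mean of 46.25 counts per library. Muscle (3 names) and liver (1 name) markers had 0 counts, endothelial markers 8 (1 of 2 names) and epithelial markers 7 (3 of 5 names, all in IL-1β libraries). Of 8 miRNAs of embryonic stem cells, 3 had counts, with 9 in all, and miR-290a-3p, miR-291a-3p and the 3 miR-302 names were at 0. The other arm, miR-291a-5p, was not in this list and had a mean of 3.625 counts per library. The part of other cells in the counts of the cluster was not tested.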

How the data were processed

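miRNA-seq counts of 8 libraries (4 per group) were used, in a single table. The authors trimmed reads with cutadapt, aligned them to mm10 with STAR (default settings) and counted them with featureCounts, and deposited raw counts per mature miRNA. The submitters' processing notes named STAR 2.4.2a, the methods a later STAR version and a GENCODE annotation, and neither a source or release for the miRNA names. The columns held whole numbers and their totals differed. They were taken as counts without the RUVseq correction named in the methods, which these features do not settle and which was not tested. The default settings of STAR limit how many positions a read may have at alignment, whereas the settings of featureCounts for strand and for such reads were not given in the sources used here. A second deposited column, length, was used to find summed loci.

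The members, lists and tests were chosen with earlier results of these data known. edgeR 4.0.16 (quasi-likelihood, robust, two-sided, R 4.3.3) was fitted to every miRNA over 1 CPM in at least 4 libraries, with TMM scaling (factors 0.932 to 1.04), group as the only term and Benjamini-Hochberg adjustment over 564 miRNAs. The SE was the log2 fold change divided by the square root of F, and 95% intervals used the total (residual and prior) degrees of freedom of the fit. DESeq2 1.42.0 was an alternative. Library totals were 616475 to 1568367 counts. Shares were computed on these totals with exact binomial intervals (scipy 1.17.1). Numbers detected were hypergeometric expectations at the smallest total. Members named were the 12 most abundant by mean normalized CPM, the most abundant of each number, any that was called and the 3 tested members with the smallest p. Any other is named for its counts only, chosen after its values were seen. Alternatives were other scaling, filters and denominators, DESeq2, a replicate block, names of at most 30 nt, tested members only, and leaving out each library.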

Additional observations from a re-analysis of the deposited data

How the results depend on the processing

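No member was called under any of the 14 alternatives, which tested 2 to 24 members (2 with a mean of at least 10 counts, 24 with no filter), with a smallest adjusted p among members of 0.531 to 0.884 (edgeR, or DESeq2 for the latter). Over all miRNAs these alternatives called 6 to 19, out of 307 to 1003 tested. With no filter, 1 of the 24 members had an unadjusted p under 0.05 (miR-467a-5p, edgeR adjusted p = 0.585). The share of all 1003 miRNAs with such a p is not given here, and 14 of the 1003 were called. With the replicate number as a block 0 members were called, with a smallest edgeR adjusted p of 0.809. The deviations of same-numbered libraries from their group means had correlations of 0.171, -0.345, 0.101 and -0.183 across 195 miRNAs. For vehicle and IL-1β libraries of different number the correlations were -0.318 to 0.248. No pairing by number was seen, but so few libraries cannot exclude it. The block raised the calls over all miRNAs from 11 to 19, none of them a member.

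The sign of 3 uncalled members changed. For miR-669c-5p the log2 fold change was -0.0087 with library totals only, -0.0092 with no filter, and -0.12, -0.15, -0.39 and -0.10 without vehicle replicates 1 and 4 and IL-1β replicates 2 and 3. For miR-466h-3p it was 0.0057 without vehicle replicate 2, and for miR-669l-5p it was -0.18 without IL-1β replicate 2. As each library was left out these 3 ranged from -0.39 to 0.29, from -0.53 to 0.0057 and from -0.18 to 0.74. The cause was not tested. The summed share of the cluster moved by less than 1 SD throughout, with a difference of -0.000640 to 0.000172 percentage points as each library was left out, so that its sign was not fixed. The difference in members detected, -0.59 at equal depth, was -2 counted at unequal depth, which favors the deeper vehicle libraries. Depth limits every comparison, since members had at most 37 counts in a library.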

Other observations

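Counts along the intron were uneven, in segments drawn after the values were seen. In the first 8 kb of the cluster, 7 hairpins that shared no name with another held 50 counts. In the next stretch, up to 39 kb, 32 of 37 hairpins shared their name with another, and the 5 with a name of their own (Mir669k, Mir669g, Mir669j, Mir466e and Mir467b) held 0 counts. From 39 kb on, 15 hairpins with a name of their own held 361 counts. The names shared by several hairpins of the middle stretch gave 5 counts of miR-467a-5p and 3 of miR-466c-5p.

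Among 38 groups of 4 libraries examined for a library far from the other 3 (the shares, the numbers detected and the 8 tested members), 0 were found, where chance gives about 1.9. IL-1β replicate 1 was low for miR-669c-5p without reaching that limit.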
